A study of Homo sapiens with 12 samples.

Results

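MAPK feedback genes are the brakes and readouts that cells switch on when the ERK pathway is active. Of 10 listed genes, 9 were found by symbol in a raw count table of 16599 genes: the dual-specificity phosphatases DUSP4, DUSP5 and DUSP6, the Sprouty genes SPRY2 and SPRY4, SPRED1 and SPRED2, and the ERK output genes PHLDA1 and EPHA2. DUSP1 was not analysed here. All 9 passed the filter on low counts, which left 15991 genes tested. The members were given as a list of gene names, drawn up with earlier results of these data known.

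Polyadenylated RNA was sequenced from the established cell lines A549 and H1650, both derived from human lung cancers, each untreated or over-expressing SRSF2, a serine/arginine-rich splicing factor, with 3 libraries in each of the 4 groups. As background, H1650 carries an activating EGFR deletion. The construct and the time after its delivery are not given in the sources used here, and the controls are labelled untreated, with an unexplained NC in each title. Nothing says that the 3 libraries of a group came from separate cultures; p-values then reflect library-to-library spread only, which may be technical.

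Total counts ran from 23876899 to 32079027 per library, and 3 counts corresponded to 0.0935 to 0.126 CPM, the count of a gene scaled to the size of its library. In bulk RNA, fewer cells making a transcript and less of it per cell cannot be told apart. The H1650 SRSF2 libraries varied most (common biological coefficient of variation 0.0560, against 0.0298 to 0.0343 in the other groups), and replicate 3 lay at -33.8 on the second principal component of all libraries, where replicates 1 and 2 lay at -45.2 and -42.3 and the untreated H1650 libraries at 40.9 to 41.6. Of 8 lung epithelial markers, 7 were measured and summed to 9330 to 10500 CPM in every group, most of it from keratins KRT7, KRT8 and KRT18, while the surfactant gene SFTPB was at 0 to 0.405 CPM. CD14, the only leukocyte marker measured, did not exceed 6.58 CPM, and the 2 fibroblast collagens measured summed to at most 22.7 CPM. SRSF2 itself was not analysed here, and the labelled over-expression is unchecked. Single epithelial markers moved within that sum: 2 rose and 4 fell in A549, and 4 rose and 2 fell in H1650. KRT19 was at 1300 to 1310 CPM in untreated and 561 to 612 CPM in SRSF2 H1650, and CDH1 at 37.0 to 43.0 and 25.6 to 28.8 CPM in A549; their part in the results was not tested. EPCAM was at 3.39 to 6.33 CPM in A549 and 295 to 354 CPM in H1650.

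Growth factor receptors activate RAS, which passes the signal through the kinases RAF, MEK and ERK. ERK then induces genes that limit it: DUSP phosphatases remove the phosphates that keep MAP kinases active, Sprouty proteins act between the receptor and RAF, and SPRED proteins bring neurofibromin to the membrane to switch RAS off. For this reason DUSP, SPRY and SPRED transcripts, with PHLDA1 and EPHA2, are widely read as a gauge of ERK output in epithelial cancers. Only RNA was examined here, and whether ERK activity changed was not tested.

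Feedback genes were higher in SRSF2 over-expressing cells of both lines. In A549, 8 of 9 members rose and 0 fell, where 32.3% of all genes tested were called at an edgeR adjusted p under 0.05 (16.4% higher, 15.9% lower). In H1650, 8 of 9 rose and 1 fell, where 62.3% of all genes were called (31.0% higher, 31.3% lower). The median log2 fold change of the members was 0.30 in A549 and 0.91 in H1650, beside 0.0021 and 0 over all genes tested. In A549 the members ranged from SPRY4 at -0.016 to SPRY2 at 0.85, and in H1650 from SPRED1 at -0.34 to EPHA2 at 1.68. The A549 count was 6 to 8 over 19 alternative analyses and 8 in each of them for H1650.

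**Figure D1:**
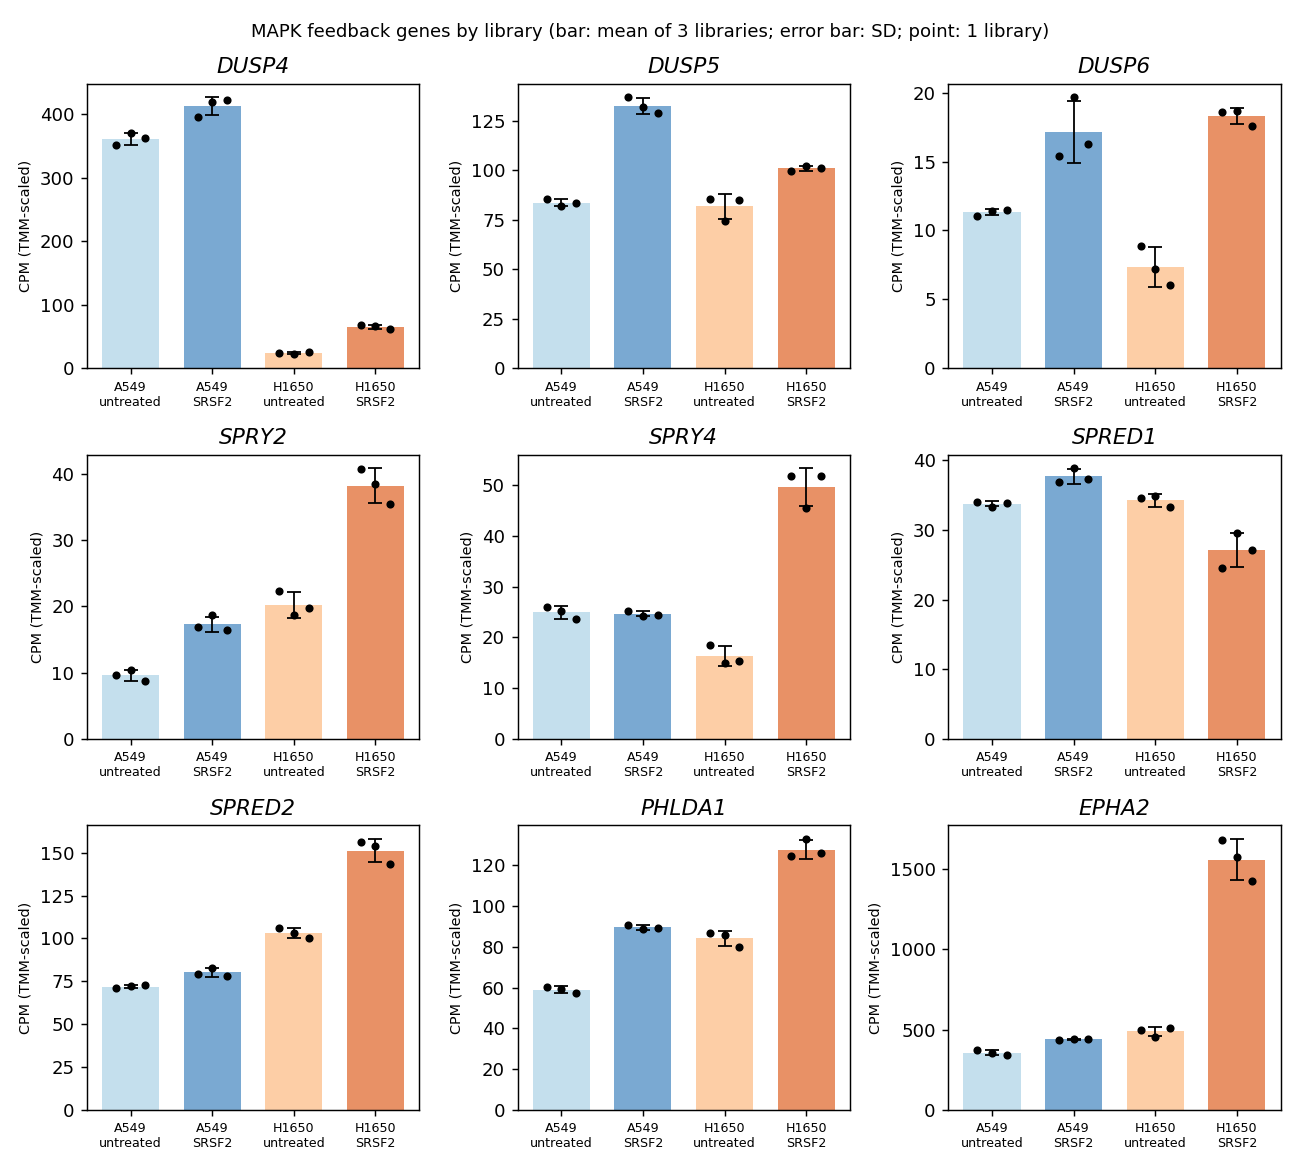
TMM-scaled CPM of the 9 MAPK feedback genes in 12 libraries, in 4 groups of 3 (x axis), with 1 panel and 1 linear y axis per gene. Bars are means, error bars SD and points single libraries; DUSP4 is far lower in H1650 than in A549, and EPHA2 reaches 1423 to 1679 CPM in the H1650 SRSF2 libraries.

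DUSP4 is a nuclear phosphatase for ERK, JNK and p38 kinases (ENSG00000120875, GRCh38 chromosome 8, 29333064 to 29350668). Untreated A549 libraries held 351, 371 and 362 CPM and A549 SRSF2 libraries 397, 420.0 and 422 CPM (log2 fold change 0.19, SE 0.04, edgeR adjusted p = 2.77e-04). The A549 groups did not overlap, a property of 45.6% of all genes tested in that comparison, but the rise was small. In H1650 the untreated libraries held 24.2, 21.9 and 24.4 CPM, and the SRSF2 libraries 67.8, 66.0 and 61.0 CPM (log2 1.47, SE 0.05, edgeR adjusted p = 9.85e-23). Here too the groups were apart, as for 64.7% of genes in H1650, and DUSP4 rose 2.76-fold. Even so, every H1650 SRSF2 library stayed far below every A549 library.

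DUSP5 is a nuclear phosphatase selective for ERK (ENSG00000138166, chromosome 10, 110497838 to 110511544). It held 85.5, 81.7 and 83.4 CPM in untreated and 137, 132 and 129 CPM in SRSF2 A549 libraries (log2 0.67, SE 0.05, edgeR adjusted p = 1.46e-13). Untreated H1650 libraries were at 85.5, 74.5 and 85.1 CPM and SRSF2 libraries at 99.7, 102 and 101 CPM (log2 0.31, SE 0.05, edgeR adjusted p = 6.63e-07). The untreated lines overlapped (log2 -0.03, SE 0.05, edgeR adjusted p = 0.527), so DUSP5 started level in the libraries and ended higher in A549. H1650 untreated replicate 2 was the low library of its group.

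DUSP6, the cytoplasmic ERK phosphatase, was the least abundant of these phosphatases (ENSG00000139318, chromosome 12, 89347232 to 89353271). It went from 11.1, 11.4 and 11.5 CPM to 15.4, 19.7 and 16.3 CPM in A549 (log2 0.60, SE 0.10, edgeR adjusted p = 9.75e-06). The H1650 values were 8.87, 7.16 and 5.99 CPM in untreated and 18.6, 18.7 and 17.6 CPM in SRSF2 libraries (log2 1.31, SE 0.10, edgeR adjusted p = 2.82e-13). All SRSF2 libraries of the lines fell in 1 overlapping range, although untreated H1650 was below untreated A549. Of its exon bases 1875 are shared with an antisense gene, AC024909.2, and it is not given in the sources used here whether counting used strand, so reads of the pair cannot be told apart.

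SPRY2 and SPRY4 encode Sprouty adaptors, and they behaved differently in A549. SPRY2 (ENSG00000136158, chromosome 13, 80335976 to 80340951) held 9.60, 10.4 and 8.79 CPM in untreated and 16.8, 18.6 and 16.5 CPM in SRSF2 A549 libraries (log2 0.85, SE 0.09, edgeR adjusted p = 1.63e-09). Untreated H1650 libraries were at 22.4, 18.6 and 19.7 CPM and SRSF2 libraries at 40.8, 38.4 and 35.5 CPM (log2 0.91, SE 0.07, edgeR adjusted p = 4.52e-13). SPRY2 had the largest log2 fold change of the members in A549, and its groups did not overlap in either line.

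SPRY4 (ENSG00000187678, chromosome 5, 142310427 to 142326455) held 25.9, 25.3 and 23.6 CPM in untreated and 25.2, 24.3 and 24.5 CPM in SRSF2 A549 libraries, which overlapped (log2 -0.016, SE 0.07, 95% interval -0.16 to 0.13, edgeR adjusted p = 0.897). SPRY4 rose 3.04-fold in H1650, from 18.6, 15.0 and 15.5 CPM to 51.9, 45.5 and 51.8 CPM (log2 1.61, SE 0.07, edgeR adjusted p = 4.52e-20). Untreated H1650 was below A549, and H1650 SRSF2 was above it. SPRY4-AS1 overlaps the gene on the other strand, with 0 exon bases in common.

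The promoters of members that rose in both lines, where at least 200 bases before the RefSeq start lie outside GENCODE 29 exons, are given for SPRY2 (GRCh38.p14, chr13:80341127-80341376), SPRED2 (chr2:65432638-65432849) and EPHA2 (chr1:16156088-16156319). All are minus-strand genes and are written 5′ to 3′ on the gene's strand. Capitals mark a match to a motif searched on both strands: the cyclic AMP response element TGACGTCA, the AP-1 site TGANTCA, an ETS site CCGGAAG and the CArG box of SRF.
SPRY2: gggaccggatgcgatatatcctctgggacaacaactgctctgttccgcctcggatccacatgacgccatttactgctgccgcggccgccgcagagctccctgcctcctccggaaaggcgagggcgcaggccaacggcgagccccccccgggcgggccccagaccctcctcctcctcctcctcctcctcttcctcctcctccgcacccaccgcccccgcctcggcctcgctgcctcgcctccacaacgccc
SPRED2: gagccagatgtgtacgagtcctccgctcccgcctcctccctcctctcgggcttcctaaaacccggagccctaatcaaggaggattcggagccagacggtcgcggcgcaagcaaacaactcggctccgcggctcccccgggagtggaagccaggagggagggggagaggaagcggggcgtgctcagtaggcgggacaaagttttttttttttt
EPHA2: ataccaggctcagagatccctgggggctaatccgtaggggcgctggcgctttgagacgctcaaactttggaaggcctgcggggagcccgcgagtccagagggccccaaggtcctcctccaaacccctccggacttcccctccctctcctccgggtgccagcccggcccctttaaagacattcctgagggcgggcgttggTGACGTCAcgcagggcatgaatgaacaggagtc
Of 7 measured members with a RefSeq promoter in the table used, EPHA2 alone held the cyclic AMP response element, 51 to 44 bases before its start; 1.77% of 27305 promoters of the same length hold these letters, and 2.76% of the 11471 whose gene is in the count table. The AP-1 letters (6.60% of all promoters, 4.16% of those in the count table), the ETS letters (8.82% and 14.5%) and the CArG box (1.14% and 0.976%) were in 0 of the 7 windows. The windows of the 7 members were 57.2% to 78.4% G and C. Those of DUSP6, SPRED1 and PHLDA1 lie wholly in GENCODE 29 exons (250 of 250 bases), and that of SPRY4 in part (170 bases). By GENCODE 29 the windows of DUSP6, SPRED1, PHLDA1 and SPRY4 lie inside the gene. For these members, missing letters say nothing of the sequence before the GENCODE start.

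SPRED1 was the exception among the members: it fell in H1650. SPRED1 (ENSG00000166068, chromosome 15, 38252326 to 38357249) held 34.5, 34.9 and 33.2 CPM in untreated and 24.6, 29.6 and 27.2 CPM in SRSF2 H1650 libraries (log2 -0.34, SE 0.06, edgeR adjusted p = 1.07e-05). In A549 it held 34.0, 33.3 and 33.9 CPM in untreated and 36.9, 38.9 and 37.3 CPM in SRSF2 libraries (log2 0.16, SE 0.06, edgeR adjusted p = 0.0346). The A549 call was lost with DESeq2 size factors (adjusted p = 0.0679), with DESeq2 itself (0.0864) and without any 1 of A549 untreated replicates 1, 2 and 3 or A549 SRSF2 replicates 2 and 3 (0.0550 to 0.144). The fall in H1650 held its call in all 19 alternatives, at log2 -0.41 to -0.28. Some of these left out only an A549 library and so kept all H1650 libraries.

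SPRED2 (ENSG00000198369, chromosome 2, 65310851 to 65432637) was more abundant than SPRED1 in every library. It held 70.8, 72.4 and 72.5 CPM in untreated and 79.1, 83.0 and 78.3 CPM in SRSF2 A549 libraries (log2 0.16, SE 0.04, edgeR adjusted p = 0.00611, or 0.0569 without A549 SRSF2 replicate 2). The untreated H1650 libraries held 106, 103 and 99.99 CPM and the SRSF2 libraries 156, 154 and 143 CPM (log2 0.55, SE 0.04, edgeR adjusted p = 1.35e-13). The SPRED genes thus moved apart in H1650: per exon length the SPRED1 to SPRED2 ratio was 0.207 ± 0.0039 in untreated and 0.112 ± 0.0119 in SRSF2 libraries (SD, n = 3). In A549 that ratio was 0.293 ± 0.0062 and 0.293 ± 0.0031, and the libraries of the groups overlapped.

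PHLDA1, a pleckstrin homology-like protein induced by ERK (ENSG00000139289, chromosome 12, 76025447 to 76033932), had close to the same log2 fold change in each line. It went from 60.5, 59.3 and 57.2 CPM to 91.0, 88.7 and 89.3 CPM in A549 (log2 0.60, SE 0.05, edgeR adjusted p = 1.11e-12). H1650 libraries held 87.1, 85.6 and 79.9 CPM untreated and 124, 133 and 126 CPM with SRSF2 (log2 0.60, SE 0.04, edgeR adjusted p = 3.07e-14). The groups were apart in both lines, and every H1650 SRSF2 library was above every other library. The antisense genes AC011611.3 and AC011611.4 share 553 and 779 of its exon bases. How reads there were counted is not given, so some may have been added to PHLDA1 or left out.

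EPHA2, a receptor tyrosine kinase for ephrin A ligands and a transcriptional target of RAS-ERK signalling (ENSG00000142627, chromosome 1, 16124337 to 16156087), showed the largest rise of the members in H1650. Untreated H1650 libraries held 499, 456 and 509 CPM and SRSF2 libraries 1679, 1572 and 1423 CPM, a 3.19-fold rise (log2 1.68, SE 0.05, edgeR adjusted p = 5.23e-26). H1650 SRSF2 replicate 3, the library that stood apart, was the lowest of its group, and without it the log2 fold change was 1.73. In A549 it went from 371, 356 and 341 CPM to 435, 442 and 441 CPM (log2 0.30, SE 0.05, edgeR adjusted p = 1.96e-06). The EPHA2 response in H1650 was larger in absolute log2 than that of 95.4% of the genes tested, and in A549 larger than that of 73.3%. The antisense gene AL451042.2 overlaps it, with 0 exon bases in common.

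**Figure D2:**
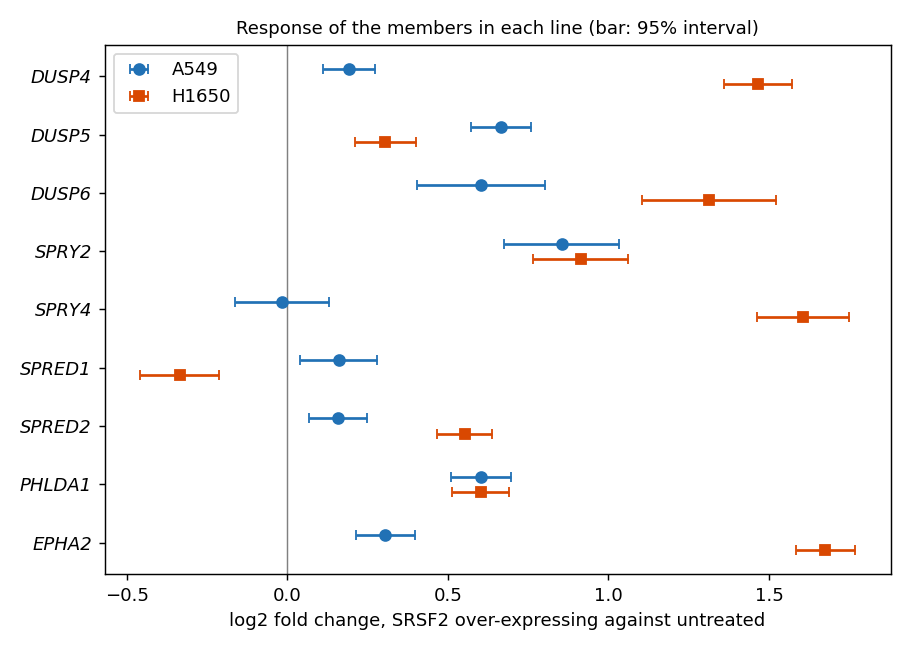
Log2 fold change of SRSF2 over-expressing against untreated cells (x axis) for each of the 9 MAPK feedback genes (y axis), in A549 (circles) and H1650 (squares), with 95% intervals. EPHA2, SPRY4 and DUSP4 lie far apart between the lines (1.68 against 0.30, 1.61 against -0.016 and 1.47 against 0.19), while SPRY2 and PHLDA1 nearly coincide.

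Whether the lines differed in their response was tested as the difference of the log2 fold changes, H1650 minus A549. It was called for 7 of 9 members, where 47.5% of all genes tested were called (23.5% higher, 24.0% lower). The response was larger in H1650 for SPRY4 (1.62, SE 0.10), EPHA2 (1.37, SE 0.06), DUSP4 (1.27, SE 0.07), DUSP6 (0.71, SE 0.14) and SPRED2 (0.39, SE 0.06), with edgeR adjusted p of at most 9.65e-05. It was smaller for DUSP5 (-0.36, SE 0.07, edgeR adjusted p = 2.10e-05) and opposite for SPRED1 (-0.495, SE 0.08, edgeR adjusted p = 8.23e-06). For SPRY2 the difference was 0.059 with a 95% interval of -0.17 to 0.29 (edgeR adjusted p = 0.707), and for PHLDA1 -0.0013 with an interval of -0.13 to 0.12 (edgeR adjusted p = 0.994). These intervals bound the difference and do not show that the lines respond alike.

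Untreated H1650 and A549 differed in 7 of 9 members, 4 higher and 3 lower in H1650, which is close to the 82.4% of all genes called in that comparison (40.1% higher, 42.3% lower). DUSP4 was lower in H1650 by the widest margin (log2 -3.94, SE 0.05, edgeR adjusted p = 4.07e-37). DUSP6 (-0.62, SE 0.11) and SPRY4 (-0.61, SE 0.07) were also lower in H1650. SPRY2 (1.08, SE 0.08), SPRED2 (0.52, SE 0.04), PHLDA1 (0.51, SE 0.05) and EPHA2 (0.46, SE 0.04) were higher, and SPRED1 overlapped (0.021, SE 0.06, edgeR adjusted p = 0.745). Between the SRSF2 groups 8 of 9 members differed, where 84.2% of all genes were called (40.5% higher, 43.7% lower). SPRY4 had changed sides there (log2 1.01, SE 0.07, H1650 against A549), and DUSP6 was no longer apart (0.089, SE 0.09, edgeR adjusted p = 0.378). DUSP4 remained lower in H1650 (-2.67, SE 0.04). The libraries of the lines did not overlap for 7 members in the untreated comparison and for 8 in the SRSF2 comparison, where 84.0% and 84.0% of all genes did not.

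Levels of different genes were compared as CPM per kilobase of exon, with exon lengths from GENCODE 29, since the annotation behind the counts is not given in the sources used here. EPHA2 was the most abundant member in all 4 groups, at 85.5 ± 3.63 and 106 ± 0.900 in untreated and SRSF2 A549 and 117 ± 6.80 and 375 ± 30.9 in untreated and SRSF2 H1650 (SD, n = 3). DUSP4 was the second in A549 (49.8 ± 1.32 untreated) and the seventh in untreated H1650 (3.24 ± 0.194). DUSP5 was within 31.2 to 50.7 in every group, and SPRED2 and PHLDA1 followed it in both lines. DUSP6 was the lowest member in 3 of 4 groups, and in the H1650 SRSF2 group SPRED1 (3.28 ± 0.303) lay below it (3.95 ± 0.126). The DUSP6 length includes the 1875 bases shared with AC024909.2. How reads there were counted is not given, so its level per kilobase and its rank are uncertain. At the low end, SPRED1, SPRY4 and SPRY2 in untreated A549 (4.08, 3.80 and 3.16) are close neighbours.

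**Figure D3:**
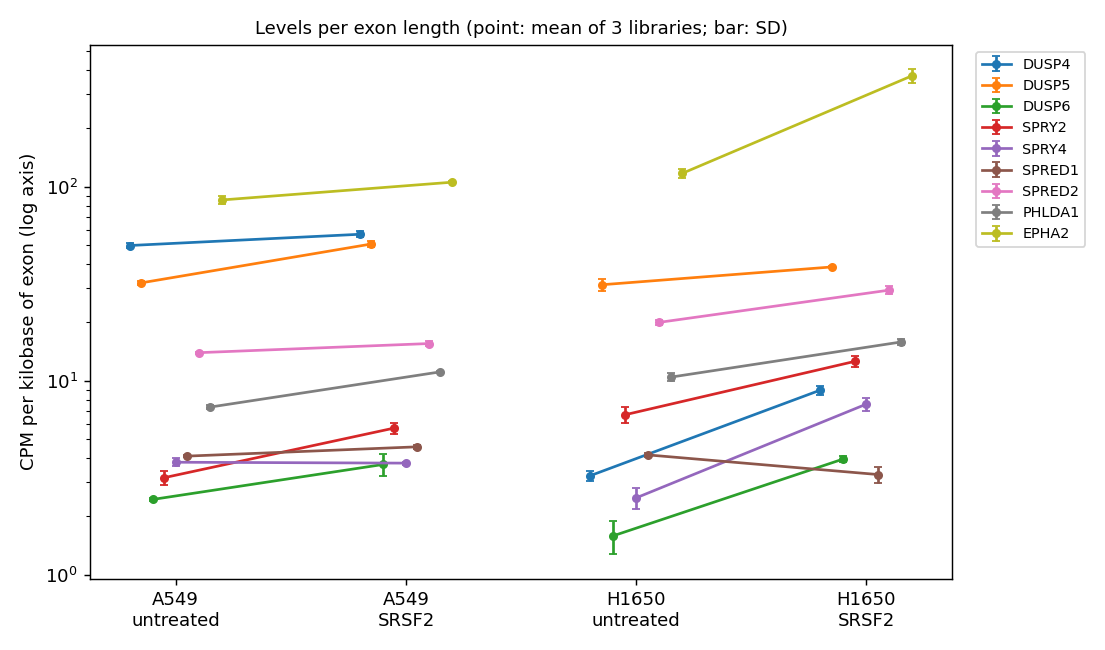
CPM per kilobase of exon (log y axis) for the 9 MAPK feedback genes in the 4 groups (x axis); points are means of 3 libraries, bars SD, and lines join untreated to SRSF2 within a line. EPHA2 is highest throughout, and DUSP4 drops from 49.8 in untreated A549 to 3.24 in untreated H1650.

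The makeup of the 3 DUSP genes also differed. Per exon length DUSP4, DUSP5 and DUSP6 summed to 84.2 ± 0.637 in untreated and 111 ± 1.19 in SRSF2 A549 libraries, and to 36.1 ± 2.63 and 51.5 ± 0.599 in H1650 (SD, n = 3). DUSP4 made up 59.1% ± 1.12 and 51.1% ± 1.49 of that sum in A549, and 8.98% ± 0.162 and 17.4% ± 0.825 in H1650. Its mean share was lower with SRSF2 in A549, where DUSP5 had the larger log2 fold change, and higher in H1650; these shares were not tested. Among the Sprouty genes, the SPRY2 to SPRY4 ratio per exon length went from 0.832 ± 0.0517 to 1.52 ± 0.118 in A549 and from 2.69 ± 0.0763 to 1.67 ± 0.175 in H1650. Its groups did not overlap in either line, so the ratio moved in opposite directions.

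The rest of the pathway was read from 12 lists with 99 other genes, of which 88 were tested. In A549 33 of these rose and 11 fell, and in H1650 38 rose and 32 fell, or 37.5% and 12.5% in A549 and 43.2% and 36.4% in H1650. The shares over all genes tested were 16.4% higher and 15.9% lower in A549, and 31.0% and 31.3% in H1650. The median of all genes tested was 0.0021 in A549 and 0 in H1650, and list medians below are log2 fold changes to be read beside it.

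Ligands of the EGFR family rose in part: 3 of 7 rose and 0 fell in A549 (median 0.27), and 5 rose and 1 fell in H1650 (median 0.36). Ligand levels differed widely between the untreated lines. EREG, encoding epiregulin, was at 154 ± 4.77 CPM in untreated A549 and rose to 243 ± 16.6 CPM, while H1650 held 0.816 ± 0.354 and 0.946 ± 0.0503 CPM (SD, n = 3). NRG1, a ligand of ERBB3 and ERBB4, rose from 194 ± 3.48 to 247 ± 12.8 CPM in A549, and in H1650 it rose from 2.59 ± 0.485 to 3.31 ± 0.195 CPM. HBEGF, heparin-binding EGF-like growth factor, rose from 71.4 ± 3.65 to 212 ± 23.6 CPM in H1650 and from 9.65 ± 0.998 to 13.8 ± 1.01 CPM in A549. BTC (1.39) and AREG (0.80) also rose in H1650, at low levels. BTC went from 2.32 ± 0.234 to 6.09 ± 0.306 CPM there and AREG from 2.90 ± 1.01 to 5.07 ± 0.343 CPM. The ligand gene that fell in H1650 was TGFA, from 212 ± 2.69 to 178 ± 2.52 CPM (log2 -0.25). It is named after its value was seen. With limma the H1650 split was 4 higher and 1 lower.

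Receptor tyrosine kinases went both ways, with 5 of 10 higher and 3 lower in A549 (median 0.051) and 4 higher and 6 lower in H1650 (median -0.30); with DESeq2 the A549 split was 3 and 3. AXL rose from 208 ± 15.0 to 407 ± 13.5 CPM in A549 and from 245 ± 9.41 to 376 ± 17.6 CPM in H1650. EGFR itself rose in both lines, from 447 ± 6.09 to 705 ± 9.24 CPM in A549 (log2 0.66) and from 720.2 ± 11.7 to 845 ± 66.0 CPM in H1650 (log2 0.23). MET, the receptor for hepatocyte growth factor, rose in A549 (0.48) and fell in H1650 (-0.31). ERBB2 fell in H1650 from 296 ± 4.17 to 176 ± 6.71 CPM, and its A549 value was -0.0043, not called. FGFR2 fell in H1650 from 17.9 ± 0.824 to 5.73 ± 0.432 CPM. Untreated A549 had more IGF1R (log2 -2.55, H1650 against A549) and FGFR1 (-1.93).

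The core of the cascade, from adaptor proteins to ERK and its substrate kinases, had 4 of 19 genes that rose and 2 that fell in A549 (median 0.0043), a called share near the 32.3% of all genes. The A549 split was 2 higher and 4 lower with DESeq2 and 4 and 4 with limma. In H1650 8 rose and 8 fell (median 0.032), where 62.3% of all genes were called. BRAF rose in A549 (0.27) and H1650 (0.49). MAP2K1, which encodes MEK1, rose in H1650 (0.59), where the phosphatase gene PTPN11, a positive regulator of RAS, fell (-0.33). Of the other genes called in A549, NRAS (0.13) and MAP2K2 (0.15), the gene of MEK2, rose and the ERK substrate kinase gene RPS6KA3 fell (-0.12). The adaptor GAB1 was at 7.37 ± 0.834 CPM in untreated A549 and 67.3 ± 0.623 CPM in untreated H1650.

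Other transcriptional outputs of ERK rose in H1650: 8 of 9 rose and 1 fell (median 1.09), against 4 that rose and 1 that fell in A549 (median 0.11). The AP-1 gene FOSL1 rose from 103 ± 9.62 to 457 ± 37.7 CPM in H1650 and from 97.8 ± 7.70 to 193 ± 10.9 CPM in A549. FOS rose in H1650 from 4.53 ± 0.501 to 44.2 ± 9.52 CPM, and in A549 it was at 5.17 ± 0.524 and 5.25 ± 0.728 CPM (edgeR adjusted p = 0.951). EGR1 rose from 0.835 ± 0.156 to 21.6 ± 0.557 CPM in A549 and from 14.9 ± 1.34 to 66.6 ± 7.07 CPM in H1650. CCND1, encoding cyclin D1, fell slightly in A549 (-0.13) and rose in H1650 (0.82), and MYC rose in both (0.29 and 1.09). ETV1, which fell in H1650 (-0.77), was the exception; it is named here because it is the only listed output that fell there. ETV1 was at 0.891 ± 0.301 and 0.507 ± 0.236 CPM, and limma did not call it. The rises were not uniform. ETV4 is counted as a rise in H1650 at a low level, from 0.174 ± 0.0787 to 0.446 ± 0.152 CPM. In A549 it was not called (log2 -0.44, edgeR adjusted p = 0.121). ETV5 rose little in H1650 (0.18) and was not called in A549 (0.11, edgeR adjusted p = 0.15). ETV4 and ETV5 are named after their values were seen.

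Of 5 other MAP kinase phosphatases tested, 3 rose and 0 fell in A549 (median 0.24), and 4 rose and 1 fell in H1650 (median 1.33). DUSP10, a phosphatase of JNK and p38, rose from 4.78 ± 0.677 to 9.06 ± 0.468 CPM in A549 and from 15.5 ± 1.25 to 42.0 ± 1.63 CPM in H1650. DUSP8 rose from 12.5 ± 0.506 to 19.9 ± 0.695 CPM and from 4.75 ± 0.526 to 21.1 ± 3.30 CPM. DUSP16 rose in both lines too (0.21 and 1.33). DUSP9, the member of that list which fell in H1650 (-0.63), went from 1.73 ± 0.267 to 1.12 ± 0.163 CPM there; it is singled out after its value was seen, and limma did not call it. DUSP7, an ERK phosphatase gene, was at 14.3 ± 0.558 CPM in untreated A549 and 39.8 ± 3.71 CPM in untreated H1650. Atypical dual-specificity phosphatases, which mostly act on other substrates, had 2 of 6 that rose and 1 that fell in A549 (median -0.024). DUSP12 (0.24) and DUSP11 (0.20) rose there and DUSP23 fell (-0.44). DUSP3 was lower in untreated H1650 than in untreated A549 (-0.80). In H1650 0 were called by edgeR, DESeq2 or limma, with 1 (DUSP22, lower) at an unadjusted p under 0.05 by each.

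**Figure D4:**
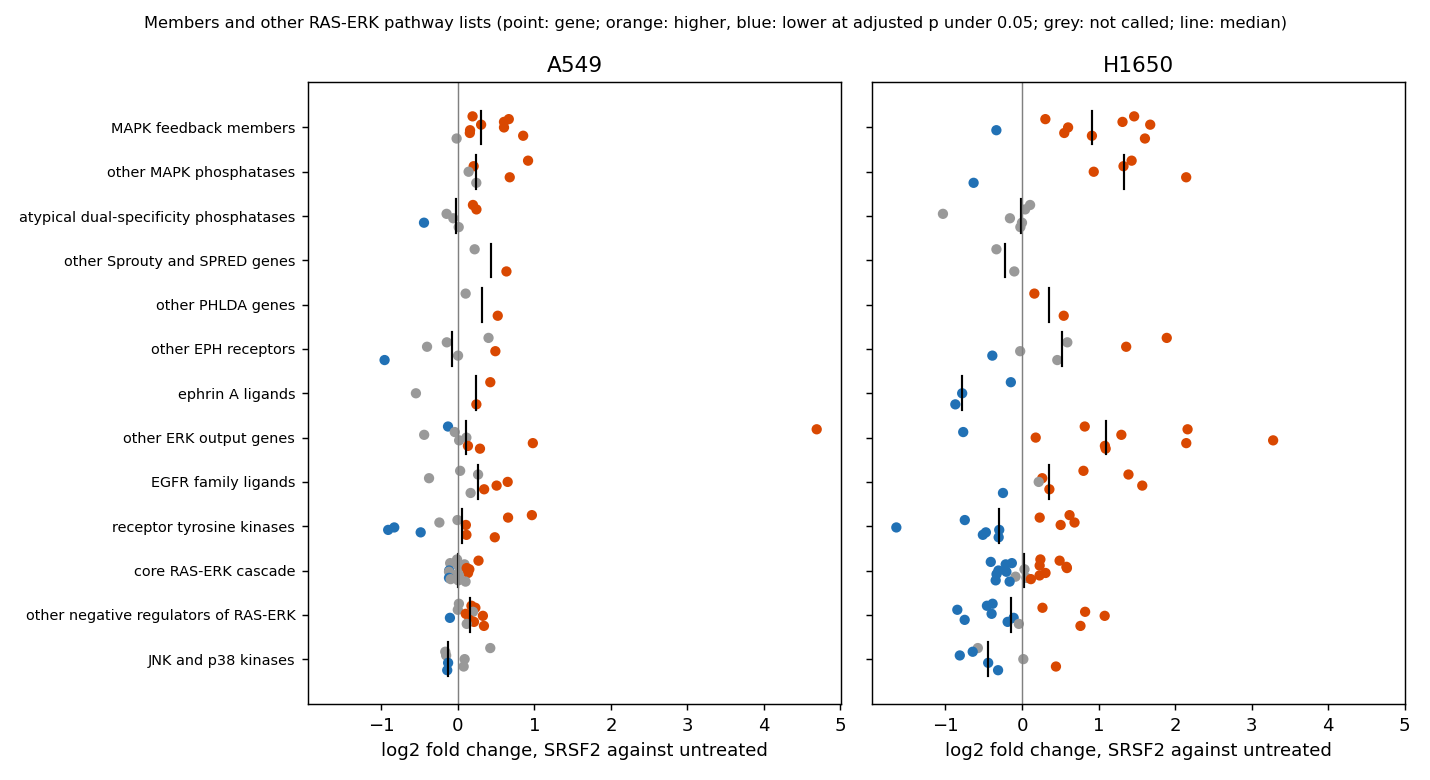
Log2 fold change of SRSF2 against untreated cells (x axes) for each tested gene of the MAPK feedback set and 12 other pathway lists (y axis), in A549 and H1650. Orange and blue points are genes called higher and lower, grey points were not called, and vertical lines are medians; the members' medians are 0.30 and 0.91.

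Of 12 genes listed as other negative regulators of RAS and ERK, 7 rose and 1 fell in A549 (median 0.17). The A549 split was 5 and 1 with DESeq2 and 8 and 1 with limma. In H1650 4 rose and 7 fell (median -0.15). The list was set by gene name, and the effect of its genes on ERK was not tested. PEA15, which holds ERK in the cytoplasm, rose from 294 ± 4.72 to 622 ± 38.1 CPM in H1650 and from 112 ± 1.73 to 141 ± 2.80 CPM in A549. ERRFI1, an inhibitor of EGFR, rose in both lines (0.23 and 0.27). TRIB1, a pseudokinase, rose in both (0.34 and 0.76). RASA1, a RAS GTPase-activating protein, fell in H1650 from 161 ± 5.34 to 95.7 ± 1.62 CPM. Like SPRED1 and SPRED2, RASA1 serves to switch RAS off. SPRED1 also fell in H1650 (-0.34), while SPRED2 rose there (0.55).

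Of the remaining family members, SPRY1 rose in A549 (0.64) from a low level of 1.58 ± 0.392 CPM, and in H1650 SPRY1 (-0.10) and SPRED3 (-0.33) were not called by edgeR, DESeq2 or limma, with 0 at an unadjusted p under 0.05. PHLDA3, a p53 target that restrains AKT, rose in both lines (0.52 and 0.55), and PHLDA2 rose in H1650 (0.16). Among other EPH receptors, 1 of 6 rose and 1 fell in A549 (median -0.070), and 2 rose and 1 fell in H1650 (median 0.53). These counts are small and, but for the falls in H1650, near the shares of all genes. Those were 16.4% higher and 15.9% lower in A549, and 31.0% and 31.3% in H1650. EPHA4 rose in H1650 from 2.21 ± 0.212 to 8.25 ± 0.920 CPM, EPHB4 fell there (-0.39), and EPHB2 rose in A549 (0.49). EPHB1 rose in H1650 (1.36) and EPHB6 fell in A549 (-0.96), each from under 3 CPM, and EPHA5 was lower in untreated H1650 than in untreated A549 (-5.70). Of 3 ephrin A ligands, which bind EPHA2, 0 rose and 3 fell in H1650 (median -0.78). EFNA1 was at 55.1 ± 1.39 and 49.8 ± 2.01 CPM (log2 -0.15) and EFNA5 at 66.6 ± 1.70 and 36.4 ± 1.05 CPM (log2 -0.87). EFNA3 fell there (-0.78) from 2.63 ± 0.233 CPM. In A549 EFNA1 and EFNA5 rose (0.42 and 0.24).

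Genes of the JNK and p38 kinases fell in part. Of 7 such genes, 0 rose and 2 fell in A549 (median -0.13), and 1 rose and 4 fell in H1650 (median -0.44). With DESeq2 and with limma, 3 fell in A549. MAPK14, encoding p38 alpha, fell from 119 ± 1.05 to 87.4 ± 2.95 CPM in H1650 and from 62.4 ± 1.33 to 57.2 ± 0.790 CPM in A549. MAPK9, a JNK gene, fell in A549 (-0.14). MAPK12 (-0.81) and MAPK11 (-0.64) fell in H1650. MAPK13 was at 0.800 ± 0.0737 CPM in untreated A549 and 77.3 ± 0.988 CPM in untreated H1650.

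For each member the 2 genes nearest in pattern were found by the Euclidean distance between log2 CPM over the 12 libraries, each gene centred on its own mean, among 10926 other genes of at least 5 CPM. The points share their libraries and 4 groups, so the correlations are descriptions only. DUSP4 was nearest to KRT86 (distance 0.537, Pearson r 0.997) and TNS4 (0.631, r 0.996), both low in H1650 and raised there with SRSF2. In A549 the log2 fold change with SRSF2 was 0.13 for KRT86 but -0.21 for TNS4, against 0.19 for DUSP4. SPRY4 was nearest to the antiproliferative gene TOB1 (0.506, r 0.972) and the stress ligand gene MICB (0.535, r 0.976). EPHA2 was nearest to ZBTB43 (0.381, r 0.993) and the interferon-induced transcription factor gene IRF1 (0.403, r 0.991). DUSP5 was nearest to GAS5 (0.302, r 0.953) and TGFB2 (0.404, r 0.944), and SPRY2 had PLK2, a polo-like kinase gene, as its second neighbour (0.535, r 0.979) after a gene without a symbol in the tables used.

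For the remaining members, SPRED1 had NFU1 (0.164, r 0.968) and MGAT4B (0.206, r 0.951) as nearest genes, and SPRED2 had TRAFD1 (0.181, r 0.992) and DNMBP (0.188, r 0.992). PHLDA1 was nearest to MYDGF (0.341, r 0.971) and XRN1 (0.363, r 0.965). DUSP6 was nearest to the histone pseudogene H2BC20P (0.455, r 0.971), a near copy of a histone gene that may take up some of its reads, and to FGD6 (0.520, r 0.963). None of these nearest genes is on the 12 pathway lists.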

How the data were processed

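Polyadenylated RNA of A549 and H1650 cells was sequenced in 12 libraries. The deposited table holds raw gene counts. The submitters' processing notes name GRCh38, STAR 2.7.7a, featureCounts 2.0.0 and fastp 0.20.1. Annotation release, strandedness and any filter behind the 16599 genes listed are not given in the sources used here. The deposited FPKM table was not used.

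Groups came from the titles and labels. The members, the 12 pathway lists and the naming rule were chosen with earlier results of these data known. From each pathway list the rule takes up to 3 called genes per line with the smallest adjusted p and up to 2 for the untreated lines, plus EGFR; 1 other gene that the rule names is not reported here. For symbols, 16076 IDs matched the name table given, 63 matched GENCODE 29 alone, and 460 had none. Promoters are RefSeq's on GRCh38.p14. No protein sequence is shown.

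The test was edgeR 4.0.16 (R 4.3.3) with filterByExpr and TMM scaling, as a quasi-likelihood F-test from 1 fit to the 12 libraries; each group had its own mean, which left 8 residual degrees of freedom. Adjustment was by Benjamini-Hochberg over 15991 genes, and calls needed an adjusted p below 0.05. CPM values use TMM-scaled totals, and marker sums plain totals. SE is approximate, the size of the log2 fold change divided by the root of F. The 95% intervals follow from it with the total degrees of freedom of the fit, which borrow from other genes. The spread of a gene was shared by all 4 groups, and the H1650 SRSF2 libraries varied most (common coefficient 0.0560). SE and intervals in H1650 can therefore be narrower than the spread of that group alone would give. Alternatives used DESeq2 1.42.0, limma 3.58.1 (voom, 1 weight per group), other scalings, no filter, only the compared groups, a replicate block, and leaving out each library. Within groups, libraries differed by more than counting noise, with chi-square over its degrees of freedom at 2.29 to 8.11. Same-numbered libraries of different groups had residual correlations of -0.022 to 0.059, so numbers were not taken as pairs.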

Additional observations from a re-analysis of the deposited data

Results flagged for a closer look

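The response to SRSF2 over-expression differed between the lines for 7 of 9 members, by the edgeR test of the difference (H1650 minus A549, log2). The differences were 1.62 for SPRY4, 1.37 for EPHA2, 1.27 for DUSP4, 0.71 for DUSP6 and 0.39 for SPRED2, and -0.36 for DUSP5 and -0.495 for SPRED1, with edgeR adjusted p of at most 9.65e-05. SPRED1 was called in opposite directions in the lines, and its rise in A549 (log2 0.16) lost its call in several alternatives. Of the 88 other pathway genes tested, 65 (73.9%) had a called difference, where 47.5% of all genes tested had one. Groups of 3 libraries are too small for the outlier test, and no data outside the main measurement were examined.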

How the results depend on the processing

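The member counts kept their values in all alternatives in H1650, for the response difference and between the lines. The replicate block kept 8 members higher and 0 lower (A549), 8 higher and 1 lower (H1650) and 5 larger and 2 smaller responses; it called 5185, 9936 and 7624 of all genes, against 5162, 9957 and 7601 without it, and changed no member's call. In A549 the members called higher ranged from 6 to 8. Of 171 values of single members in A549, 162 kept direction and call and 8 lost the call, all of SPRED1 or SPRED2. The 171 include fits that left out only an H1650 library, which put little strain on an A549 result.

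Only differences near 0 that were not called changed sign. SPRY4 in A549 was at -0.054 to 0.013 when single libraries were left out. The response difference of PHLDA1 was 0.012 with DESeq2 size factors and with DESeq2, and -0.041 to 0.022 without single libraries. That of SPRY2 was -0.016 with plain library totals and -0.0094 to 0.14 without single libraries. Between untreated lines, SPRED1 was at -0.0044 with DESeq2 size factors and with DESeq2 and at -0.020 with plain totals, and DUSP5 was at 0.0057 with no filter and -0.059 to 0.038 without single libraries. Between SRSF2 groups, DUSP6 was at -0.027 with plain totals. The cause was not tested. Plain totals moved the median of all genes between SRSF2 groups to -0.17. No library's removal moved a called member by over 1.5 times. DUSP6 and SPRY2 rest on the fewest counts, 181 to 1088 per library.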
